A study of Homo sapiens with 11 samples.

Results

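Hippo signalling was followed through 10 genes in a line of human prostate cancer cells, PC-3. These were the kinases LATS1 and LATS2, the scaffold SAV1, the coactivators YAP1 and WWTR1 (also named TAZ), their DNA-binding partner TEAD1, and ANKRD1, CTGF, CYR61 and AMOTL2, which are transcribed under the control of YAP and TEAD in many cells. All probes carrying 1 of these gene names in the scanner files were taken, which gave 19 of the 41000 probes and 10 of the 30484 gene names on the array. All 19 passed the filter on low signals, as did 27135 probes in all. The set of genes was put together with the low LATS2 and the high ANKRD1 of the duplex arrays already known, so the differences of these genes from mock are given as a description. Their SEs and 95% intervals show the spread of the arrays, and no p-value is printed for them. How many passed a threshold is given beside the share of all probes, and nothing is read from those counts.

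The study asked whether short RNA duplexes that share a seed change transcription through the mRNAs that the seed matches. Cells received the transfection reagent alone (mock), or the reagent with dsEcad640, an siRNA written against the E-cadherin promoter, or with the duplex of a miRNA (miR-520f, or miR-302a, miR-520c, miR-373 and miR-372, which are related to it), and RNA was taken after 24 h. On each array, 150 ng of RNA mixed from 4 transfections was measured in 1 colour, so single transfections cannot be set against each other, and whether the mock arrays came from separate mixes is not given in the sources used here. There were 4 mock arrays and 7 duplex arrays on 3 slides, called sets, and arrays are named by the sample numbers of their labels. Set 1 was made of mock sample 1 with dsEcad640 (sample 2), miR-302a (sample 3) and the first miR-372 array (sample 4). In set 2, mock sample 8 went with miR-373 (sample 7) and miR-520f (sample 6). Set 3 had a pair of mock arrays (samples 9 and 11) beside the other miR-372 array (sample 10) and miR-520c (sample 12). Sample 6 was read as miR-520f, as most of its labels say, although its title spells the name miR-530f.

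In the Hippo pathway, the upstream kinases STK3 and STK4 act with SAV1 to activate LATS1 and LATS2. Active LATS kinases phosphorylate YAP and TAZ, which are then kept in the cytoplasm or degraded, whereas unphosphorylated YAP and TAZ enter the nucleus, bind TEAD factors and activate genes such as CTGF, CYR61 and ANKRD1. The activity of YAP is set by phosphorylation, so the mRNA level of YAP1 does not report it. LATS2 is also known as a target of the miR-372 and miR-373 family.

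The mature strands of the 5 miRNAs are shown because they decide which duplexes were grouped. They are from RefSeq (GRCh38.p14), written 5′ to 3′, with bases 2 to 8, the seed, in capitals.
miR-302a: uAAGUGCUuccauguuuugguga
miR-372: aAAGUGCUgcgacauuugagcgu
miR-373: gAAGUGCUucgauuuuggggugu
miR-520c: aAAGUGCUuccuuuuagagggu
miR-520f: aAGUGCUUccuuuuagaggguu
The first 4 share the seed AAGUGCU. The study describes dsEcad640 as having it too, and these 5 duplexes, with 6 arrays, are called the common-seed duplexes. In miR-520f the seed is AGUGCUU, the same run shifted by 1 base. Outside the first bases, miR-520c and miR-520f are nearly alike.

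Signals are given as levels, which are log2 values from which the 75th percentile of their array was subtracted, and a difference is the log2 level of a duplex array minus the mean of the mock arrays of its set. A level belongs to its probe and was not compared between probes. The share of probes well above background was 54.5% to 72.9% on 10 arrays and 88.1% on miR-372 sample 4, and 0 spots were saturated. Levels of the probes that passed the filter and had a value on all arrays were correlated. The median r was 0.988 between arrays of the same set and 0.963 between arrays of different sets. All probes of the epithelial genes KRT8 and KRT18, of VIM and of CD44 were well above background on all 11 arrays, as PC-3 cells are known to express them. Of the 3 probes of KLK3, a prostate gene known to be low in these cells, 2 were well above background on 4 and 1 arrays and the third was bright on all 11. PTPRC, a marker of blood cells, was well above background on 1 array, and the 3 COL3A1 probes on 0 to 5, whereas PECAM1 and COL1A1 had weak signal on all 11 arrays. The differences of COL1A1 were 0.24 to 1.39 under the common-seed duplexes and 2.35 under miR-520f, and those of PECAM1 were -1.02 to 0.71 and 0.41. The limma test called none of the kept probes of these markers of other cells between common-seed duplexes and mock, and their part in the results was not tested.

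Among the kinases, LATS2 was lower on all 6 common-seed arrays than on every mock array, with both of its probes. At the probe nearer the 5′ end (hg18, chr13:20446786-20446845, minus strand), its level was -0.74, -0.77, -0.48 and -0.58 on mock samples 1, 8, 9 and 11. It was -1.86 on dsEcad640, -2.16 on miR-302a, -1.95 and -1.54 on miR-372 samples 4 and 10, -2.07 on miR-373 and -1.94 on miR-520c. The groups did not overlap, and miR-520f, at -1.27, lay between them. LATS2 was known to be low when it was chosen, and the share of all probes separated in this way was not counted. At the second probe (chr13:20445929-20445988), the mock levels were -1.23, -1.17, -0.96 and -0.92. The common-seed levels ran from -2.45 on miR-302a to -2.03 on dsEcad640, again without overlap, and miR-520f was at -1.33, close to the mock array of its slide. In the fit over all arrays, the difference was -1.24 (SE 0.11) and -1.24 (SE 0.13), which is 2.37-fold and 2.36-fold lower. Leaving out any single array kept it between -1.32 and -1.18 for the first probe and between -1.38 and -1.19 for the second. In these bulk samples, fewer cells with LATS2 mRNA and less of it per cell cannot be told apart.

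LATS1, the other LATS kinase, was close to the background. Only 6 arrays measured it well above background, and its levels ran from -6.24 on miR-520f to -4.37 on miR-372 sample 4. The miR-372 sample 4 signal was at least 1.89-fold higher than that of mock sample 1, where the probe was not well above background, and this is the array on which the largest share of all probes was above background. In set 3, where both mock arrays measured it, miR-372 differed by 0.08 and miR-520c by 0.53. No bound could be given for the other arrays of sets 1 and 2, so the data hold little on LATS1.

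SAV1, which brings STK3 and STK4 to the LATS kinases, has 2 probes that did not move together. At the 3′ probe, the differences were 0.53 under dsEcad640, 0.18 under miR-302a, 0.10 and 0.11 under miR-372, and 0.11 and 0.55 under miR-373 and miR-520c, and the miR-520f array gave 0.39. All of them were above 0. At the 5′ probe, 5 of the 6 common-seed differences lay between -0.38 and 0.05 and that of miR-373 was 1.43. The fitted difference was 0.26 (SE 0.13) at the 3′ probe and 0.21 (SE 0.26) at the 5′ probe, with 95% intervals from -0.05 to 0.57 and from -0.38 to 0.80.

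The mRNAs of the coactivators and of TEAD1 were near their mock levels under the common-seed duplexes. For YAP1, the 5′ probe had mock levels of 0.35, 0.33, 0.01 and -0.07, and duplex levels from -0.14 under miR-520c to 0.48 under miR-520f. These ranges overlapped, and the fitted difference between common-seed duplexes and mock was 0.05, with a 95% interval from -0.18 to 0.28. The other YAP1 probe was 1.91 lower on mock sample 11 than on mock sample 9 of the same slide, and its interval ran from -0.70 to 1.21. For TEAD1, the interval was -0.38 to 0.10 at the 3′ probe and -0.56 to 0.58 at the 5′ probe.

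WWTR1, which encodes TAZ, has 4 probes, and they split under miR-520f. The 2 probes on the transcript NM_015472 had differences of 0.44 and 0.35 on that array. The 2 probes further in the 3′ direction, which carry the accession AL050107 (chr3:150719432-150719491 and chr3:150719007-150719066), had differences of -1.12 and -0.96. On the 6 common-seed arrays, these last probes lay between -0.21 and 0.62, and the 4 fitted differences of WWTR1 from mock were 0.13 to 0.22. A single level of WWTR1 under miR-520f can therefore not be given from these probes.

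Among the target genes, ANKRD1, which encodes a nuclear ankyrin repeat protein of striated muscle and of stretched or wounded cells, was far higher on every duplex array. Its levels (hg18, chr10:92662542-92662601, minus strand) were -6.06, -6.64, -5.97 and -5.44 on mock samples 1, 8, 9 and 11. They were -2.78 on dsEcad640, -2.52 on miR-302a, -2.59 and -2.70 on miR-372 samples 4 and 10, -3.43 on miR-373, -3.24 on miR-520c and -3.26 on miR-520f. The 7 duplex arrays lay well apart from the 4 mock arrays. ANKRD1 was chosen with its high level known, and the share of all probes separated in this way was not counted. On mock samples 1 and 8 the probe was not well above background, so that only bounds can be given in sets 1 and 2. ANKRD1 was at least 5.70-fold higher under dsEcad640, at least 6.79-fold under miR-302a, at least 6.50-fold under miR-372 (sample 4), at least 3.93-fold under miR-373 and at least 4.41-fold under miR-520f. In set 3, where the mock arrays measured it, the differences were 3.01 under miR-372 and 2.46 under miR-520c. The fit, which used the dim signals as measured, gave 3.07 (SE 0.19) for the common-seed duplexes. With these signals raised to the lowest one well above background on their array, the mean of the 6 differences was 2.57, which is 5.94-fold, and after normexp background correction, whose offset shrinks dim signals, the fit gave 1.00.

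CTGF, a secreted matrix protein and among the most used reporters of YAP activity, stayed near its mock level. Its mock levels were 1.29, 1.30, 1.09 and 1.12 on samples 1, 8, 9 and 11. The duplex levels were 1.45 on dsEcad640, 1.41 on miR-302a, 1.47 and 1.24 on miR-372, 1.54 on miR-373, 0.79 on miR-520c and 1.44 on miR-520f. The array with the lowest CTGF, miR-520c, was also the one with the largest mean LATS2 difference, -1.45. It had the highest AMOTL2 difference as well, 1.05, and its 3 CYR61 probes differed by -0.36, 0.18 and 0.61. A link between these values was not tested. For CTGF, the other 6 duplex arrays stood 0.12 to 0.24 above the mock arrays of their set. The fitted difference under the common-seed duplexes was 0.06 (SE 0.11), with a 95% interval from -0.19 to 0.32, which is 1.25-fold at its upper end.

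CYR61, the close relative of CTGF, was read by 3 probes spread over the transcript NM_001554. At the probe nearest the 5′ end, the common-seed differences ran from -0.36 under miR-520c to 0.40 under miR-373. At the middle probe they ran from -0.23 under miR-372 sample 10 to 0.41 under dsEcad640, and at the 3′ probe from 0.04 under miR-372 sample 10 to 0.61 under miR-520c. Under miR-520f the 3 probes gave -0.19, 0.05 and -0.07. The fitted differences were 0.12, 0.13 and 0.26, with SEs of 0.14, 0.14 and 0.17.

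The probes of CYR61 also differed between mock arrays in the order of their place on the transcript. Mock sample 11 minus mock sample 9 was -0.16 at the 5′ probe, 0.41 at the middle probe and 0.68 at the 3′ probe. The mock arrays of set 3 minus those of sets 1 and 2 gave -0.21, 0.70 and 0.99 in the same order. The differences under miR-520c, from the same slide, had this order too, at -0.36, 0.18 and 0.61. Those under miR-372 sample 10, also from that slide, did not, at 0.19, -0.23 and 0.04. The part of this order in the CYR61 values of set 3 was not tested.

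AMOTL2, a target of YAP that in turn binds YAP and holds it out of the nucleus, was above the mock mean of its set on all 7 duplex arrays, by 0.05 to 1.05. Its mock levels were 2.51, 2.51, 2.58 and 3.48 on samples 1, 8, 9 and 11, so that mock sample 11 stood 0.90 above mock sample 9 of the same slide. The duplex levels were 2.91 on dsEcad640, 2.55 on miR-302a, 2.57 and 3.14 on miR-372 samples 4 and 10, 2.62 on miR-373, 4.08 on miR-520c and 3.13 on miR-520f. The groups overlapped, since mock sample 11 was above all duplex arrays other than miR-520c. Against mock sample 9 alone miR-372 differed by 0.56 and miR-520c by 1.50, and against mock sample 11 alone they differed by -0.34 and 0.60. The fitted difference was 0.34 (SE 0.25), with a 95% interval from -0.23 to 0.91.

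**Figure D1:**
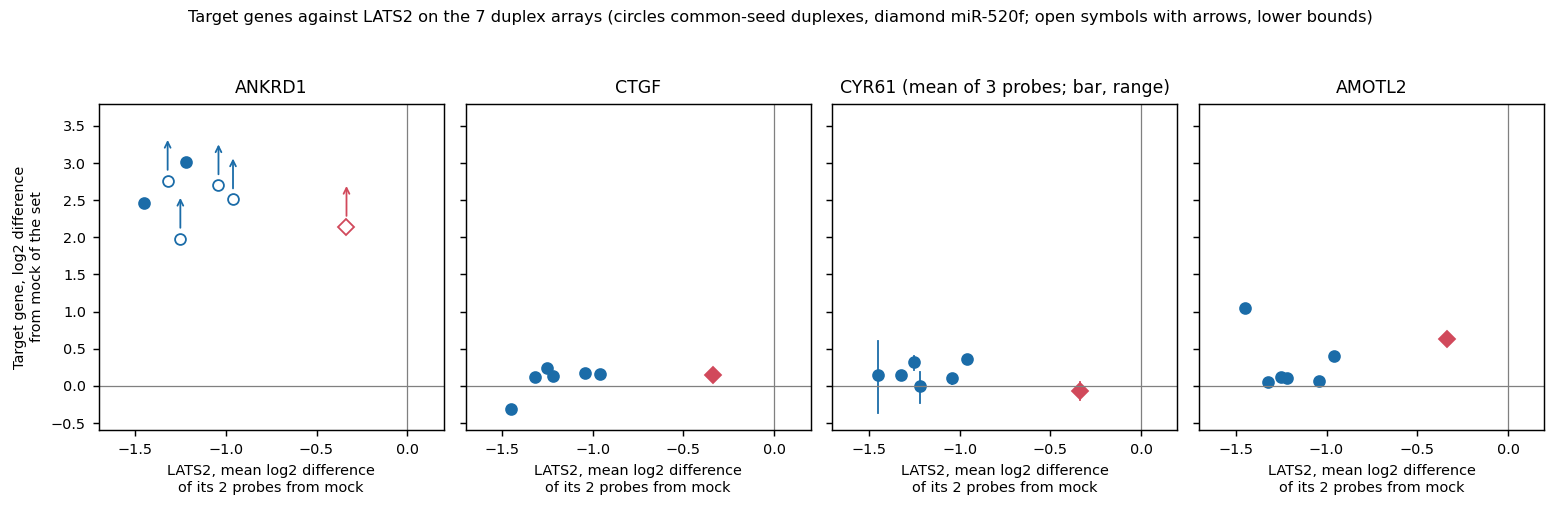
Difference of each target gene from mock (vertical axis, log2, the same in all panels) against the mean difference of the 2 LATS2 probes (horizontal axis, log2) on the 7 duplex arrays. Circles are common-seed duplexes, the diamond is miR-520f, and the bars of CYR61 span its 3 probes. Open symbols with arrows are lower bounds for ANKRD1 in sets 1 and 2, where mock signals were raised to the lowest one well above background. ANKRD1 is at 1.98 or above on all 7 arrays, and most values of the other targets lie near 0.

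The values of the target genes can be read beside those of LATS2. The mean LATS2 difference was -0.96 under dsEcad640, -1.04 and -1.22 under miR-372, -1.25 for miR-373, -1.32 for miR-302a and -1.45 for miR-520c, and it was -0.33 for miR-520f. On the 2 duplex arrays of set 3, where the mock arrays measured ANKRD1, its difference was 3.01 beside a LATS2 difference of -1.22 and 2.46 beside one of -1.45. Under miR-520f, where LATS2 was nearest to mock, ANKRD1 was at least 4.41-fold higher. The bounds of sets 1 and 2 cannot be ranked among themselves or against these values. The arrays of a set share their mock arrays, so no correlation is given. Of the 19 probes, 3 passed an adjusted p of 0.05 in the comparison of common-seed duplexes with mock, the 2 of LATS2 and that of ANKRD1, where 4.19% of all probes did. Without mock sample 1, the 5′ probe of LATS2 no longer passed, with its difference still at -1.24. In 4 probes, of SAV1, ANKRD1, CYR61 and AMOTL2, all 6 common-seed arrays lay above the mock mean of their set, as 16.6% of all probes did, and in the 2 LATS2 probes all lay below it, as 11.5% did. Under miR-520f against mock, 1 of the 19 probes, that of ANKRD1, passed, against 0.671% of all probes. The genes were chosen on these contrasts, ANKRD1 passed the filter on low signals mainly through the duplex arrays, and nothing is read from the counts.

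The comparison of miR-520f with the common-seed duplexes was not itself used to choose the genes, and it was tested. It reuses the duplex arrays on which LATS2 was known to be low and ANKRD1 high. For these genes it is therefore not independent of the choice. By limma with Benjamini-Hochberg adjustment over all 27135 probes, 0 of the 19 probes passed, where 0.0663% of all probes did, and 4 of the 19 had an unadjusted p under 0.05, as did 2014 of all probes. These 4 were the LATS2 probes and the AL050107 probes of WWTR1. LATS2 was higher under miR-520f by 0.77 (SE 0.20, adjusted p = 0.283) and by 1.06 (SE 0.24, adjusted p = 0.197), with 95% intervals from 0.30 to 1.23 and from 0.51 to 1.61 in limma's fit. The AL050107 probes were lower by 1.24 (SE 0.33, limma's adjusted p = 0.286) and 0.96 (SE 0.23, limma's adjusted p = 0.221). Over the alternatives the adjusted p of the second LATS2 probe ran from 0.0828 to 0.860. ANKRD1 was higher under miR-520f by 0.24 (SE 0.35), with an interval from -0.58 to 1.05 (0.669-fold to 2.07-fold), in a fit that used the dim mock signals as measured. Between miR-520f and the common-seed duplexes, the interval was -0.50 to 0.47 for CTGF and -0.69 to 1.49 for AMOTL2. The single miR-520f array was taken to vary like the others. In simulated data with 200 changed probes, this test recovered 0% of those changed by 1 on the log2 scale.

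Since TEAD factors bind the sequence GGAATG, the promoters of the 10 genes were searched for it on both strands. RefSeq promoters of 300 bases, 250 before and 50 after the start, were held for 8 of the 10 genes, and CYR61 and TEAD1 were without an entry. The windows that carry the motif in the target genes are shown, and binding to them was not measured. Each is printed 5′ to 3′ on the strand of its gene with the motif in capitals (GRCh38.p14).
ANKRD1, 220 bases upstream, chr10:90921292-90921317, minus strand: caccaccaaaGGAATGgccctctcac
ANKRD1, 128 bases upstream, chr10:90921200-90921225, minus strand: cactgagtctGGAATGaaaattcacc
CTGF, 169 bases upstream, chr6:131951526-131951551, minus strand: ttcagacggaGGAATGctgagtgtca
CTGF, 104 bases upstream, chr6:131951461-131951486, minus strand: aaggtggggaGGAATGcgaggaatgt
CTGF, 95 bases upstream, chr6:131951452-131951477, minus strand: aggaatgcgaGGAATGtccctgtttg
AMOTL2, 69 bases upstream, chr3:134374501-134374526, minus strand: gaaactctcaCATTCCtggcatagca
ANKRD1 has 2 matches, CTGF 3, of which the last 2 windows overlap, and AMOTL2 1, read on the other strand and in 1 of its 2 promoters. LATS2 and YAP1 have 1 match each, that of LATS2 downstream of the start. Of all 35116 promoters of this length, 14.0% hold the motif. The CArG box, bound by the serum response factor SRF, was found in 0 promoters of the 8 genes and in 1.29% of all promoters. A match is a sequence of letters and not a measured binding site.

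The rest of the Hippo pathway was read from a list of 36 further symbols, of which 31 were on the array and 30, with 55 probes, were tested. Between common-seed duplexes and mock, 2 genes fell and 1 rose by limma at an adjusted p under 0.05. FAT4, a giant cadherin that acts upstream of the kinases, gave a dim signal. It fell by 0.93 on the log2 scale (SE 0.16, limma's adjusted p = 0.026, range over the alternatives 0.00703 to 0.218). Its differences from mock were -1.22 to -0.39 on the common-seed arrays and 1.11 on the single miR-520f array. STK4, the kinase upstream of LATS, fell by 0.74 (SE 0.16, limma's adjusted p = 0.0481, range 0.0187 to 0.341) at 1 of its 3 probes, and its other probes were at 0.04 and -0.02. TEAD4 rose by 0.76 (SE 0.14, limma's adjusted p = 0.0286, range 0.0121 to 0.167), with all 6 common-seed arrays 0.58 to 0.98 above mock. The calls of the 55 probes, 1.82% higher and 3.64% lower, compare with 2.16% and 2.03% of all probes. The median was 0.05 against 0.03 for all probes. This list and the lists that follow were chosen with earlier results of these data known, so such shares and medians are a description. STK3, the paralogue of STK4, was at -0.39 (SE 0.22), and TEAD2 and TEAD3 lay between -0.07 and 0.12. For the single miR-520f array, the median of the list was 0.03 against mock, where that of all probes was -0.06. Against the common-seed duplexes it was -0.05, where that of all probes was -0.07. The calls were lost easily: except without miR-372 sample 4, leaving out any single array left 0 or 1 gene that fell, and TEAD4 passed only without that array, mock sample 9 or mock sample 11.

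A further 25 symbols named as YAP targets in other cells gave 23 on the array and 21 genes with 35 probes tested. Of these, 4 genes fell and 0 rose under the common-seed duplexes by limma. CCDC80, a matrix protein, fell by 0.80 (SE 0.10, limma's adjusted p = 0.00933, range over the alternatives 0.00296 to 0.0953), with differences from -0.90 to -0.63 on the 6 arrays, at 1 of its 2 probes. The other CCDC80 probe was at -0.76 (SE 0.35, limma's adjusted p = 0.266), with differences from -1.27 to 0.57. The 5′-nucleotidase NT5E fell by 0.70 (SE 0.12, limma's adjusted p = 0.0256, range 0.0106 to 0.201) at 1 of 3 probes, and the others were at -0.50 and -0.63. RBMS3, an RNA-binding protein, fell by 0.40 (SE 0.08, limma's adjusted p = 0.0446, range 0.0169 to 0.314) at 1 of 3 probes, and ARHGEF17, a guanine nucleotide exchange factor, by 0.35 (SE 0.07, limma's adjusted p = 0.0441, range 0.0242 to 0.325). The 4 calls are 11.4% of the 35 probes, where 2.03% of all probes fell, and 0% rose, where 2.16% of all probes did. The list was chosen with earlier results of these data known and has several probes for some genes. These shares are therefore a description. The median of the list was -0.14 against 0.03 for all probes. Of the 35 probes, 15 had an unadjusted limma p under 0.05, as did 5723 of all 27135 probes. Without the set as a block, 0 of these genes passed, and with an array left out 0 (without mock sample 1) to 7 (without miR-372 sample 4) did, and 1 or 2 without any other array. CCDC80 kept its call without each array other than mock sample 1. Between the single miR-520f array and the common-seed duplexes, the median of the list was -0.16 against -0.07 for all probes.

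CTGF, CYR61 and ANKRD1 share regulators with genes of SRF and the actin cytoskeleton, and 15 such genes were read for that reason. All 15 were on the array and 14, with 24 probes, were tested. None passed by limma in the comparison of common-seed duplexes with mock, where 4.19% of all probes did. Of the 24 probes, 7 had an unadjusted limma p under 0.05, as did 5723 of all 27135 probes. Nothing is read from these counts. The largest differences were those of CNN1, the smooth muscle protein calponin, at -1.26 (SE 0.48, limma's adjusted p = 0.179), and of the immediate early gene FOS, at -0.67 (SE 0.46, limma's adjusted p = 0.463). TAGLN was at 0.45 (SE 0.56) and 0.42 (SE 0.18). The median of the list was 0.14 against 0.03 for all probes. For the single miR-520f array, the median was 0.08 against mock, where that of all probes was -0.06. Against the common-seed duplexes it was -0.03, where that of all probes was -0.07. Without miR-372 sample 4, 2 genes of the list fell and 1 rose under the common-seed duplexes.

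As a description, the genes whose levels followed those of LATS2, ANKRD1 or CTGF most closely were sought over the 11 arrays. The mean of each set was taken out, and no test was made. These points share their mock arrays and 3 slides. The 21387 probes well above background on all 11 arrays were compared. Most like the mean of the LATS2 probes were FUNDC1 (r = 0.982), the COPII coat gene SEC23A (r = 0.972), ZC3H11A, PIGM and IL28RA (r = 0.968 each). The differences of SEC23A were -2.03 to -1.25 on the common-seed arrays and -0.44 on miR-520f. Opposite to LATS2 were LOC391247 (r = -0.984), the PDZ and LIM protein PDLIM2 (r = -0.981), MAPKAPK3 (r = -0.980), SLC9A8 and BE044472 (r = -0.979 each). PDLIM2 was 1.27 to 1.78 above mock on the common-seed arrays and 0.14 above on miR-520f.

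Most like ANKRD1 were NOB1 (r = 0.990), the transcription factor KLF5 (r = 0.989), the collagen COL5A2 (r = 0.983), NKD2 and BC037827 (r = 0.981 each). The ANKRD1 values behind these r include mock samples 1 and 8, where its probe was not well above background. KLF5 was 0.63 to 0.97 above mock on the common-seed arrays and 0.69 above on miR-520f. Opposite to ANKRD1 were ENST00000252229 (r = -0.977), the glycosyltransferase GALNT3 (r = -0.975), CR616845 (r = -0.974) and MAGEH1 (r = -0.972), and the differences of GALNT3 were -1.99 to -1.35 on the common-seed arrays and -2.47 on miR-520f. The genes like CTGF, led by SYNCRIP (r = 0.973), BG036557, YTHDF2, TFCP2 and ZC3H14, had mean common-seed differences of 0.05 to 0.24 and lowest ones of -0.62 to -0.40. Opposite to CTGF were the unnamed probe A_23_P369758 (r = -0.969), BC002470, BC002811, ZNF713 and AY239294.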

How the data were processed

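Total RNA of PC-3 cells was hybridized to 11 Agilent arrays in 1 colour, whose probe coordinates are those of hg18. Per the file headers, the authors extracted the deposited intensity values with Feature Extraction 10.5.1.1, which subtracted the background and removed trends within each array and did not scale between arrays. The authors also deposited a table of log2 values with equal distributions within a set, whose normalization is not given in the sources used here, and it served as an alternative.

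The 75th percentile of each array was subtracted from its log2 processed signals, outlier spots (52 to 209 of 43376) were left out, and spots of a probe were averaged. Probes well above background on at least 6 of 11 arrays were kept. Mock, common-seed duplexes and miR-520f were fitted with limma 3.58.1 (R 4.3.3) with the set as a fixed block (6 residual degrees of freedom, median posterior SD 0.209), and p-values were adjusted over all kept probes by Benjamini-Hochberg. Where a signal was not well above background, bounds used the lowest signal well above background on that array. The number of arrays limits the precision. As nothing states that the mock arrays came from separate cultures, p-values measure the spread between these arrays, which may be technical.

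The 10 genes and the lists were chosen with earlier results of these data known. The genes named are these 10, those of each list past the threshold (or else the 3 with the largest changes), and the 5 best correlated in each direction with LATS2, ANKRD1 and CTGF. A few genes that these rules or the marker lists would name are not reported here. Tested on simulated data with 200 changed probes, the comparison of common-seed duplexes with mock recovered 0%, 62% and 89.5% of log2 changes of 0.5, 1 and 2. The comparison of miR-520f with the common-seed duplexes recovered 0%, 0% and 73.5%. These shares hold for that number of changed probes, whereas 1137 probes were called between common-seed duplexes and mock in the data. Alternatives were quantile normalization, normexp with an offset of 50, no filter or all 11 arrays, no set block, the authors' table, the mean of a gene's probes, single mock arrays in set 3 and each array left out. The raised dim ANKRD1 signals were added after seeing the data. Seed matches in transcripts and the sequence of dsEcad640 were not analysed here. Python 3.11.15, numpy 2.4.6, pandas 2.3.3, scipy 1.17.1 and matplotlib 3.10.9 were used.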

Additional observations from a re-analysis of the deposited data

Results flagged for a closer look

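A single array lay far from the others of its kind in 7 of the 38 groups of arrays examined. The groups were the mock levels and the common-seed differences of the 19 probes. For independent replicates chance gives about 1 in 20. These groups share arrays and genes and mix different duplexes, so that rate does not apply to them directly. AMOTL2 had a level of 3.48 on mock sample 11, with the other mock arrays at 2.51 to 2.58, and a difference of 1.05 under miR-520c, with the other common-seed arrays at 0.05 to 0.40. CTGF had a difference of -0.31 under miR-520c (others 0.12 to 0.24), and the 5′ probe of CYR61 one of -0.36 on the same array (others 0.16 to 0.40). The 5′ probe of SAV1 had a difference of 1.43 under miR-373 (others -0.38 to 0.05), and the 5′ probe of AL050107 in WWTR1 one of 0.62 under miR-372 sample 10 (others -0.09 to 0.16). The 5′ probe of WWTR1 had a level of -0.32 on mock sample 11, with the other mock arrays at 0.01 to 0.05. Of these 7, 6 came from set 3, and the cause was not tested.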

How the results depend on the processing

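The differences of LATS2 and ANKRD1 from mock kept their direction under every alternative that gave a value. Among differences that were not called, some changed sign under at least 1 alternative, 5 of the 26 between common-seed duplexes and mock (called ones counted in the 26), 9 of the 19 between miR-520f and the common-seed duplexes, and 11 of the 38 of single duplex arrays in set 3. That of ANKRD1 between miR-520f and the common-seed duplexes was -0.38 without the set block. The first LATS2 probe no longer passed when mock sample 1 was left out, at a difference of -1.24. LATS2 was chosen with its low level known, so nothing is read from its call. ANKRD1 has no value with the filter on all 11 arrays or in the authors' table. With normexp background correction, whose offset shrinks dim signals by construction, the ANKRD1 difference was 1.00 and that of the first LATS2 probe -1.04. With dim mock signals raised, chosen after seeing the data, ANKRD1 was at 2.57. Leaving out each array gave -1.32 to -1.18 and -1.38 to -1.19 for the LATS2 probes, 2.89 to 3.23 for ANKRD1, 0.01 to 0.17 for CTGF and 0.14 to 0.46 for AMOTL2.

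Counts moved far more. Probes called between common-seed duplexes and mock were 1137, and they were 222 with no filter, 2099 with the filter on all 11 arrays, 382 without the set block, 2012 in the authors' table, 5723 at an unadjusted p, and 24 (without mock sample 1) to 1925 (without miR-372 sample 4) with an array left out. Those between miR-520f and the common-seed duplexes were 18, and they were 169 with quantile normalization, 29 with normexp, 0 with no filter, 63 with the filter on all 11 arrays, 49 in the authors' table and 0 to 336 with an array left out.

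Genes of the Hippo list that fell were 2, and they were 1 with quantile normalization, with the filter on all 11 arrays, without the set block and with the mean of a gene's probes, 0 with no filter and 0 to 2 with an array left out. The 1 that rose became 0 with no filter or without the set block and 0 to 1 with an array left out. YAP targets that fell were 4, and they were 1 with no filter or the mean of probes, 7 with the filter on all 11 arrays and in the authors' table, 0 without the set block and 0 to 7 with an array left out, and 1 rose with normexp. In the SRF list 0 to 2 fell and 0 to 1 rose with an array left out, and 1 rose with normexp and with the filter on all 11 arrays. The causes were not tested. Arrays could not be paired by the sample numbers of the labels, which are not shared between groups. The set, which the labels do share, was the block instead.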
